A study of Mus musculus with 12 samples.

Results

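The alpha and beta tubulin genes of the mouse were described in bulk tumor RNA from 12 mice. The 10 genes (Tuba1a, Tuba1b, Tuba1c, Tuba4a, Tubb2a, Tubb2b, Tubb3, Tubb4b, Tubb5 and Tubb6) were chosen by name and found through the Ensembl identifiers of the count files, which list 52636 genes. All 10 were found, 4 alpha and 6 beta tubulins, and 9 of them passed the filter on low counts together with the 17970 genes that were tested. Tubb3 did not pass.

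The tumors were transplants of 2153L, a genetically engineered mammary tumor of the mouse, into the mammary fat pad of BALB/c females, and TNBC (triple-negative breast cancer) is the cell type in their labels. Each of 4 groups held 3 tumors. P53ERTAM Combo tumors carried p53 fused to a tamoxifen-responsive estrogen receptor domain and received ORIN1001 (150 mg/kg) with docetaxel (20 mg/kg), P53ERTAM Vehicle tumors carried the same fusion and received vehicle, and the EV Combo and EV Vehicle tumors carried an empty vector under the same treatments, for 8 days in all groups. Which mice were given tamoxifen is not in the labels, all groups share 1 tumor line, and nothing in the labels says whether tumors with the same replicate number belong together. ORIN1001 blocks the RNase of IRE1, a sensor of the unfolded protein response, and docetaxel is a taxane that binds beta tubulin inside the microtubule and stabilises the polymer. No group received either drug alone, so effects of ORIN1001 and of docetaxel cannot be told apart here.

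Microtubules are built from heterodimers of 1 alpha and 1 beta tubulin. New tubulin chains are folded by the chaperonin CCT, which receives them from prefoldin, and are assembled into dimers by the cofactors Tbca to Tbce. Cells also sense their pool of free tubulin. When it is high, TTC5 recognises the start of the nascent tubulin chain on the ribosome and, through SCAPER and the CCR4-NOT deadenylase, the tubulin mRNA is degraded; when the pool is low, as in cells whose microtubules are stabilised, the mRNA is spared. The isotypes are very similar proteins encoded by separate genes, and their proportions differ between tissues: Tubb3 and Tubb2b are prominent in neurons, and Tubb5, Tubb4b and Tuba1b are widely expressed.

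The start of the coding sequence is what that feedback reads out as protein, so the first 30 bases are given for 5 genes that the results turn on. They come from the GENCODE M21 annotation (GRCm38), and the capitals mark the first 4 codons.
Tuba1a: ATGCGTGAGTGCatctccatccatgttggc
Tuba4a: ATGCGCGAGTGCatttcagtccatgtgggg
Tubb2a: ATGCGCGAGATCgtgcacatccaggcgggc
Tubb2b: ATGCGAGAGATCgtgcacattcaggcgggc
Tubb5: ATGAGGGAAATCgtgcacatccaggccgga
Tuba1b and Tuba1c have the same first 4 codons as Tuba1a, base for base. The 2 families part at the fourth codon, TGC in these alpha genes and ATC in these beta genes.

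Tuba1a and Tubb2a were the alpha and the beta gene called higher under combo with both vectors, and Tuba1b and Tubb5 were the most abundant gene of each family. The 250 bases before their transcription starts are given for comparison, from RefSeq's annotation of GRCm38.p6, each on the strand of its gene; 8 of the 10 genes had an entry, not Tubb2b and Tubb6. The windows are chr15:98953502-98953751 for Tuba1a, chr15:98934391-98934640 for Tuba1b, chr13:34078009-34078258 for Tubb2a and chr17:35838302-35838551 for Tubb5, all on the minus strand. Genes as annotated in the count files reach into the windows of Tuba1a (to 98953551), Tuba1b (to 98934565) and Tubb5 (to 35838306). For Tubb2a the first bases after the RefSeq start were not found in a GENCODE transcript. Capitals mark 3 motifs searched on either strand: CCAAT, the letters that the factor NF-Y binds, the GC box GGGCGG that factors of the Sp family bind, and the TATA box, spelled TATAAA. On the other strand the GC box reads CCGCCC.
Tuba1a: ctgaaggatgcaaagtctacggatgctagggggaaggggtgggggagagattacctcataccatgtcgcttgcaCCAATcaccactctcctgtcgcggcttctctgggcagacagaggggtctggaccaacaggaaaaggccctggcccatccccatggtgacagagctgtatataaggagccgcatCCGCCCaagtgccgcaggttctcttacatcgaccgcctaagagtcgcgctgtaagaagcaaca
Tubb2a: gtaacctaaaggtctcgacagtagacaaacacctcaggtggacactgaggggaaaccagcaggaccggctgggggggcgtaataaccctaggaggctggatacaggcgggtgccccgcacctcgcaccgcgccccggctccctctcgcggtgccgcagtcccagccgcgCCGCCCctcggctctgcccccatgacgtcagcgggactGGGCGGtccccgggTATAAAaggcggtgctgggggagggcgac
Tuba1b: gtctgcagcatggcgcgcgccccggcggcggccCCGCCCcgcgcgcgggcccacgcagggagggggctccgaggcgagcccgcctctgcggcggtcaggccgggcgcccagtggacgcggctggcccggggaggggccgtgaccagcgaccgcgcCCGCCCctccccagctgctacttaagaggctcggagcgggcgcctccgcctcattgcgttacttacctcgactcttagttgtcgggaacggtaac
Tubb5: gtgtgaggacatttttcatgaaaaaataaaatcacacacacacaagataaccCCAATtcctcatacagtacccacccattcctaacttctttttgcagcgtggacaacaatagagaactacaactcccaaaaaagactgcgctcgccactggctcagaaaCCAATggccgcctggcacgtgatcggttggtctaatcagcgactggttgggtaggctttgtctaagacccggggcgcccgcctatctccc
CCAAT stood in 33.8%, GGGCGG in 32.7% and TATAAA in 12.4% of the 32851 promoters of the same length. Tubb2a held TATAAA and GGGCGG motifs, Tuba1a held CCAAT and GGGCGG, Tuba1b held GGGCGG alone and Tubb5 held CCAAT alone. These are matches of letters, not sites shown to be bound.

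The library totals were 21914913 to 24424964 counts in P53ERTAM Combo, 13484873 to 19461986 in P53ERTAM Vehicle, 14433361 to 17601245 in EV Combo and 20431888 to 23188928 in EV Vehicle. Levels are given as CPM, counts scaled to the library's TMM-adjusted size, and levels between genes are compared only per exon length, as TPM. The 3 EV Combo libraries stood apart from the other 9. Gm26917, a noncoding gene, took 10.7% to 11.1% of their counts against 0.133% to 1.10% elsewhere, and protein-coding genes took 80.9% to 81.7% against 86.7% to 95.8%. Every comparison below with EV Combo rests on these libraries. P53ERTAM Vehicle replicate 2 had the lowest total and, of the other 9, the lowest protein-coding share. Of 6 p53 target genes, 6 were called higher in P53ERTAM than in EV tumors under combo and 4 under vehicle. Cdkn1a, a cell cycle inhibitor that served as a check of the labels, was higher by 2.42 ± 0.333 (log2 fold change ± SE, adjusted p = 0.00017) under combo and by 1.90 ± 0.327 (adjusted p = 0.00107) under vehicle, by edgeR's quasi-likelihood test.

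The near-identity of the genes limits what a count per gene means. Coding sequences of the alpha genes were 85% to 98.3% identical, with Tuba1a and Tuba1b the closest pair, and those of the beta genes 80.7% to 96.5%, with Tubb2a and Tubb2b the closest. Of all 50-base stretches of its transcripts, Tuba1a shared 75.5% with transcripts of another gene, Tuba1b 75.1%, Tuba1c 52.7%, Tubb2a 49.6%, Tubb4b 41.3%, Tubb2b 36.9% and Tuba4a 35.4%. Tubb5 shared 0.0892%, and Tubb3 and Tubb6 shared none. For Tuba4a most of this was Stk16, a kinase gene on the opposite strand whose exons cover 1379 of its exon bases (37.3%). How reads that fit several genes were counted, and whether strand was used, is not given in the sources used here. Values of Tuba1a, Tuba1b, Tuba1c, Tuba4a, Tubb2a, Tubb2b and Tubb4b are therefore uncertain as levels of 1 gene. Tubb5 and Tubb6 shared almost no such stretch with other annotated transcripts. Inexact matches and sequence outside annotated transcripts were not searched.

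The summed level of the 10 genes was 1880, 1678 and 1847 TPM in P53ERTAM Combo tumors and 1434, 817.7 and 1453 TPM in P53ERTAM Vehicle tumors. It was 2504, 2385 and 2613 TPM in EV Combo tumors and 2202, 2479 and 2257 TPM in EV Vehicle tumors. The P53ERTAM tumors were thus below the EV tumors under either treatment with no overlap, and within P53ERTAM the combo tumors were above the vehicle tumors with no overlap. In TPM over protein-coding genes the P53ERTAM sums were 2465, 2228 and 2409 under combo and 2076, 1560 and 2009 under vehicle. The order was the same, again with no overlap. In EV tumors the order depended on the scale: the log2 ratio of combo to vehicle was 0.11 in TPM, -0.11 in CPM and 0.37 in TPM over protein-coding genes. The ratio of beta to alpha tubulin in TPM was 2.39 ± 0.204 in P53ERTAM Combo, 2.33 ± 0.187 in P53ERTAM Vehicle, 2.89 ± 0.367 in EV Combo and 2.93 ± 0.0798 in EV Vehicle (SD, n = 3 each).

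Tuba1a, an alpha tubulin with a major role in developing neurons, measured 60.8, 50.9 and 61.2 CPM in P53ERTAM Combo and 28.1, 27.1 and 34.8 CPM in P53ERTAM Vehicle tumors. In EV tumors it measured 92.3, 53.3 and 100 CPM under combo and 42.3, 38.1 and 26.5 CPM under vehicle. Every combo tumor was above every vehicle tumor, whichever the vector, and the vectors overlapped under each treatment.

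Tuba1b, the most abundant alpha tubulin here, behaved differently. It measured 148, 145 and 124 CPM in P53ERTAM Combo and 154, 88.7 and 140 CPM in P53ERTAM Vehicle tumors. Its EV values were 127, 125 and 142 CPM under combo and 163, 196 and 191 CPM under vehicle. The EV Vehicle tumors lay above all the others, and the other 3 groups overlapped.

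Tuba1c, another of the closely related Tuba1 genes, measured 76.1, 65.9 and 76.2 CPM in P53ERTAM Combo and 68.1, 38.9 and 56.0 CPM in P53ERTAM Vehicle tumors. Tumors with the empty vector had 102, 84.2 and 111 CPM under combo and 96.9, 116 and 107 CPM under vehicle. All 6 P53ERTAM tumors were below all 6 EV tumors, and within each vector the treatments overlapped.

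Tuba4a, an alpha tubulin whose coding sequence lacks the C-terminal tyrosine codon of most alpha tubulins, measured 45.2, 40.1 and 42.0 CPM in P53ERTAM Combo and 27.5, 19.8 and 33.5 CPM in P53ERTAM Vehicle tumors. In EV tumors it measured 45.2, 59.2 and 42.2 CPM under combo and 53.3, 57.0 and 49.6 CPM under vehicle. The P53ERTAM Vehicle tumors were below all the others, which overlapped from group to group in order of their means.

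Tubb2a, a beta tubulin, measured 32.6, 28.3 and 35.0 CPM in P53ERTAM Combo and 14.2, 13.5 and 16.4 CPM in P53ERTAM Vehicle tumors. Its EV values were 27.0, 28.9 and 35.8 CPM under combo and 22, 20.2 and 19 CPM under vehicle. The combo tumors of both vectors shared 1 range, the EV Vehicle tumors lay below it and the P53ERTAM Vehicle tumors lay lowest, with no overlap at either step.

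Tubb2b, its closest paralog, measured 30.3, 26.8 and 28.1 CPM in P53ERTAM Combo and 17.8, 15 and 17.1 CPM in P53ERTAM Vehicle tumors. Tumors with the empty vector had 36.3, 32.9 and 54.2 CPM under combo and 26.4, 13.5 and 16.8 CPM under vehicle. Every combo tumor was above every vehicle tumor, by a margin as small as 26.8 against 26.4 CPM, and the EV Combo tumors were the highest.

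Tubb4b, a widely expressed beta tubulin, measured 189, 177 and 202 CPM in P53ERTAM Combo and 146, 88.3 and 146 CPM in P53ERTAM Vehicle tumors. In EV tumors it measured 286, 318 and 287 CPM under combo and 281, 276 and 272 CPM under vehicle. No neighbouring groups overlapped, and the step between the vectors was wider than that between the EV treatments.

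Tubb5, the main beta tubulin of dividing cells, measured 737, 621 and 726 CPM in P53ERTAM Combo and 604, 447 and 649 CPM in P53ERTAM Vehicle tumors. Its EV values were 896, 825 and 895 CPM under combo and 964, 1120 and 1040 CPM under vehicle. The P53ERTAM groups overlapped each other, and all P53ERTAM tumors were below all EV tumors.

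Tubb6, the class V beta tubulin, measured 87.2, 62.3 and 88.0 CPM in P53ERTAM Combo and 52.2, 46.8 and 66.9 CPM in P53ERTAM Vehicle tumors. Tumors with the empty vector had 152, 150 and 126 CPM under combo and 145, 161 and 131 CPM under vehicle. The vectors did not overlap, and within each vector the treatments did.

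Tubb3, the beta tubulin used as a marker of neurons, had 8, 0 and 10 counts in P53ERTAM Combo, 0, 0 and 0 in P53ERTAM Vehicle, 4, 8 and 0 in EV Combo and 14, 0 and 0 in EV Vehicle tumors. It was not tested. A count of 0 in all of P53ERTAM Vehicle allows up to 3 counts over the group, or 0.0589 CPM, for counting error only. This bound takes each count as an independent event. Of the counts from 1 to 20, 66.3% to 71.7% were even in the libraries, so the bound may be too low. None of 6 neuronal marker genes passed the filter either, and their summed level was at most 0.684 CPM in any tumor.

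**Figure D1:**
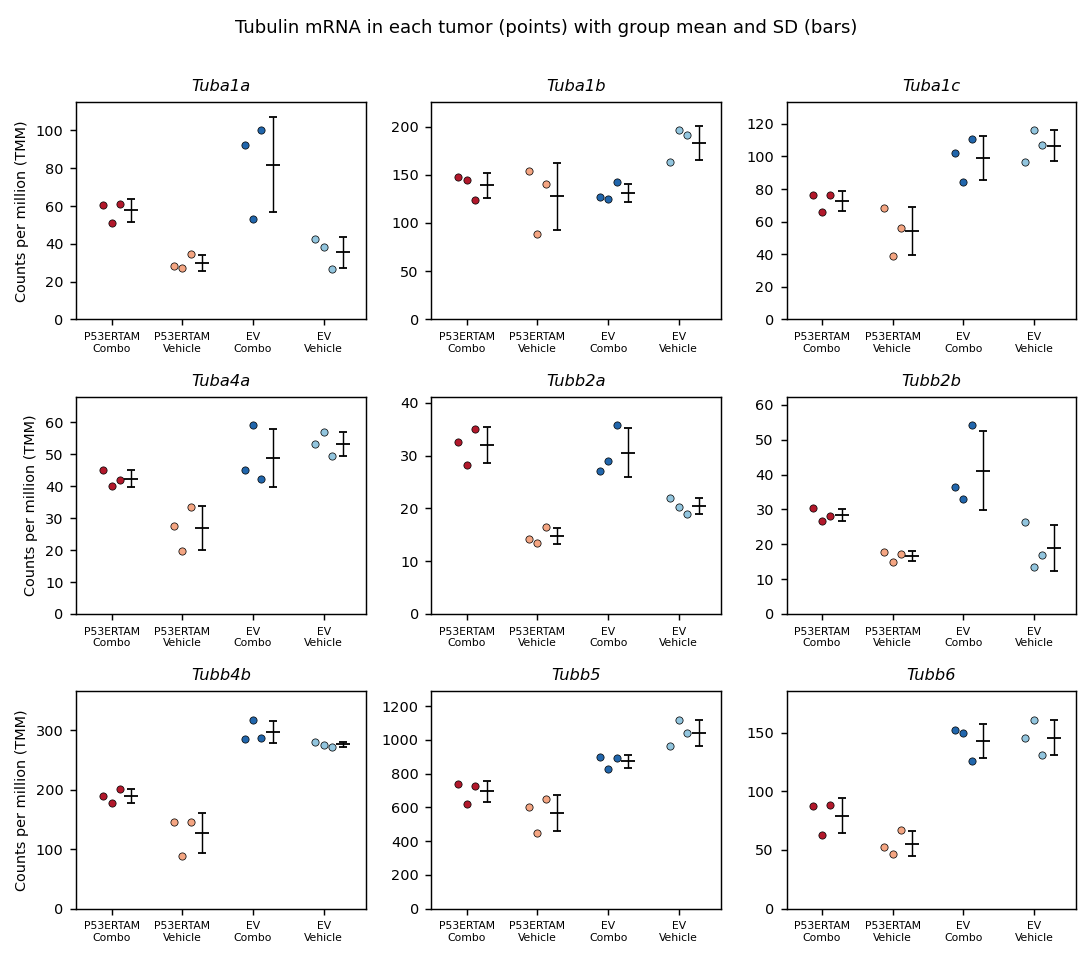
CPM (TMM-scaled) of the 9 tubulin genes that passed the filter on low counts, 1 panel a gene, with 1 point a tumor and bars for the group mean and SD (n = 3). In Tuba1a, Tubb2a and Tubb2b the combo tumors sit above the vehicle tumors for both vectors, and in Tuba1c, Tubb4b, Tubb5 and Tubb6 the P53ERTAM tumors sit below the EV tumors. Of all genes tested, 17.6% were higher without overlap for combo in P53ERTAM and 23.6% in EV tumors. For P53ERTAM against EV, 24.1% were lower without overlap under vehicle and 29.4% under combo. Shares for both comparisons together were not counted.

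The first question was how combo treatment changed the tubulins in tumors that carry the p53 fusion. In P53ERTAM tumors Tubb2a, Tuba1a, Tuba4a and Tubb4b rose with combo and no tubulin fell. This was 4 of 9 called higher, where 3.3% of all genes tested were called higher, 2.98% lower and 6.28% in either direction. All 9 log2 fold changes were positive, with a median of 0.58, against 0.01 over all genes tested and 0.06 over protein-coding genes tested. The 5 genes whose combo tumors were all above the vehicle tumors were those 4 and Tubb2b, and 17.6% of all genes tested had such higher values without overlap.

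Tubb2a rose by 1.12 ± 0.147 (log2 fold change ± SE; edgeR adjusted p = 0.00361), or 2.17-fold. Tuba1a rose by 0.94 ± 0.223 (edgeR adjusted p = 0.0308), Tuba4a by 0.65 ± 0.174 (edgeR adjusted p = 0.0432) and Tubb4b by 0.58 ± 0.154 (edgeR adjusted p = 0.0433). Tubb2b at 0.77 ± 0.232 and Tubb6 at 0.52 ± 0.159 missed the threshold, with adjusted p of 0.0641 and 0.068 in edgeR. DESeq2, voom and edgeR with no filter each called both, 6 tubulins in all. Tuba1c, Tubb5 and Tuba1b had log2 fold changes of 0.42, 0.29 and 0.12, and that of Tuba1b was -0.08 without P53ERTAM Vehicle replicate 2.

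Only the call of Tubb2a held with each of the 12 libraries left out in turn. The count of tubulins called was 1 when P53ERTAM Vehicle replicate 1 or 2, or replicate 1 or 3 of P53ERTAM Combo, was left out, and 2 without EV Combo replicate 1 or without all EV Combo tumors; without those 4 P53ERTAM libraries the count over all genes was 121, 183, 77 and 96, against 1129. Markers of other cells moved in the same comparison, among them those of macrophages, of which 7 of 8 rose, with a summed level of 1010 to 1450 CPM in P53ERTAM Combo against 434 to 502 CPM in P53ERTAM Vehicle tumors and none at 0 counts. Of the basal and myoepithelial markers 3 of 6 fell, with sums of 69.4 to 73.4 CPM in P53ERTAM Combo against 97.9 to 150 CPM in P53ERTAM Vehicle tumors and none at 0 counts. All 3 erythroid markers tested fell, with sums of 0.242 to 0.433 CPM in P53ERTAM Combo against 6.54 to 12.6 CPM in P53ERTAM Vehicle tumors. Hba-a1 was at 0 counts in P53ERTAM Combo. Of 5 Schwann cell markers 1 rose, the only positive log2 fold change of that list, whose median was -0.07. The part of these markers in the tubulin values was not tested. In bulk RNA, more cells of a kind and more RNA per cell cannot be told apart.

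In EV tumors the same treatment gave another set. Tuba1a, Tubb2b and Tubb2a rose with combo, Tuba1b fell, and Tubb4b, Tubb6, Tuba1c, Tuba4a and Tubb5 did not pass the test. With 3 of 9 called higher and 1 of 9 called lower, the tubulins stood beside 39.9% of all genes called, 18.8% higher and 21.1% lower. Tuba1a, Tubb2a, Tubb2b and Tubb4b were higher without overlap, as were 23.6% of all genes tested, and Tuba1b and Tubb5 were lower without overlap, as were 26.9%. The median log2 fold change of the tubulins was -0.04, against -0.07 over all genes tested and -0.13 over protein-coding genes tested. Of those 13911 protein-coding genes, 1943 were called higher and 3505 lower.

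Tuba1a rose by 1.20 ± 0.223 (edgeR adjusted p = 0.00136), or 2.30-fold, Tubb2b by 1.12 ± 0.232 (edgeR adjusted p = 0.00235) and Tubb2a by 0.59 ± 0.145 (edgeR adjusted p = 0.00656). These 3 calls held with each of the 12 libraries left out in turn. Tuba1b fell by 0.48 ± 0.165 on the log2 scale (edgeR adjusted p = 0.0325). The fall of Tuba1b was no longer called without 7 of the 12 libraries, EV Vehicle replicate 2 or 3, EV Combo replicate 1 or 2 or any P53ERTAM Combo tumor (adjusted p = 0.0505 to 0.111 in edgeR), and with RLE or upper-quartile scaling or a fit of protein-coding genes only. Tubb5, the most abundant tubulin, had -0.26 ± 0.132 as its log2 fold change (edgeR adjusted p = 0.137) although its ranges did not overlap. Tubb4b, Tubb6, Tuba1c and Tuba4a lay between -0.13 and 0.10, and the signs of Tubb6, Tuba1c and Tuba4a turned positive with upper-quartile scaling.

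Beside these changes, 6 of 8 epithelial markers fell in EV Combo tumors and 5 of 7 fibroblast markers rose. The summed epithelial level was 2050 to 2540 CPM in EV Combo and 3450 to 4280 CPM in EV Vehicle tumors, and the summed fibroblast level 988 to 1950 CPM in EV Combo and 521 to 560 CPM in EV Vehicle tumors, with none of either list at 0 counts. Of the other lists, 3 of 6 endothelial and 2 of 6 basal and myoepithelial markers rose and 3 of 10 proliferation markers fell. The part of these markers in the tubulin values was not tested. Combo and the higher Gm26917 share cannot be told apart in EV tumors.

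Whether the combo effect differed between the vectors was tested as an interaction, the effect in P53ERTAM minus that in EV tumors. Tuba4a at 0.78 ± 0.245 (edgeR adjusted p = 0.0248) and Tubb5 at 0.55 ± 0.187 (edgeR adjusted p = 0.0348) passed, which was 2 of 9 called, against 36% of all genes tested called and 18.8% called with a positive value. The median was 0.53 for the tubulins, 0.13 for all genes tested and 0.23 for protein-coding genes tested. Of those 13911 protein-coding genes, 3207 were called with a positive and 1629 with a negative value. Tuba1a at -0.26 ± 0.312 and Tubb2b at -0.35 ± 0.325, the genes with the steepest response in EV tumors, had negative values that did not pass (edgeR adjusted p = 0.545 and 0.418). Tubb2a had 0.53 ± 0.206 (edgeR adjusted p = 0.0585). Both calls were lost with upper-quartile scaling and with protein-coding genes only, and neither was made without EV Vehicle replicate 2, EV Combo replicate 1 or 3 or P53ERTAM Combo replicate 1 or 3.

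**Figure D2:**
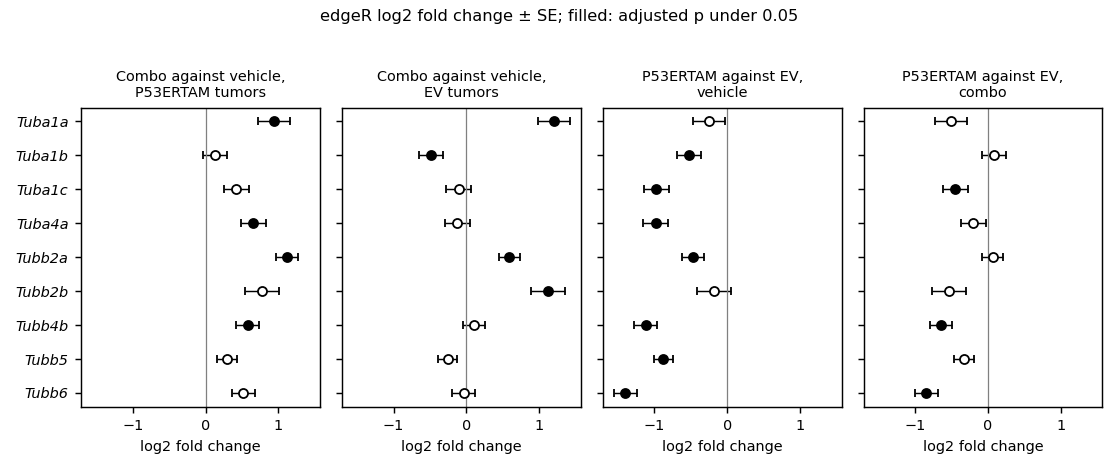
Log2 fold change (x axis) with its SE for each of 9 tubulin genes (rows) in 4 comparisons (panels); filled points passed an edgeR adjusted p of 0.05. All 9 points lie above 0 for combo in P53ERTAM tumors, all 9 lie below 0 for P53ERTAM against EV under vehicle, and Tubb6 and Tubb4b lie lowest in that panel.

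The second question was how P53ERTAM tumors differed from EV tumors. Under vehicle 7 of 9 tubulins were lower in P53ERTAM tumors: Tubb6, Tubb4b, Tuba4a, Tuba1c, Tubb5, Tuba1b and Tubb2a. Over all genes tested 37.8% were called, 19.8% lower and 17.9% higher, and 24.1% were lower without overlap, as were the same 7 tubulins. The median log2 fold change was -0.88 for the tubulins, 0.01 for all genes tested and -0.07 for protein-coding genes tested. The 2 tubulins that did not pass, Tuba1a at -0.25 ± 0.223 (edgeR adjusted p = 0.403) and Tubb2b at -0.18 ± 0.233 (edgeR adjusted p = 0.567), were 2 of the 3 that rose with combo in EV tumors; these comparisons share the EV Vehicle tumors.

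Tubb6 fell by 1.40 ± 0.161 on the log2 scale (edgeR adjusted p = 7.57e-05), to 0.38 of its level in EV Vehicle tumors. Tubb4b fell by 1.12 ± 0.155 (edgeR adjusted p = 0.000204), Tuba4a by 0.98 ± 0.175 (edgeR adjusted p = 0.00097), Tuba1c by 0.97 ± 0.172 (edgeR adjusted p = 0.000944) and Tubb5 by 0.88 ± 0.133 (edgeR adjusted p = 0.000354). These 5 calls held with each of the 12 libraries left out in turn and also passed a test against a fold of 1.5. Tuba1b fell by 0.52 ± 0.165 (edgeR adjusted p = 0.0244) and Tubb2a by 0.47 ± 0.147 (edgeR adjusted p = 0.0234). Tuba1b was no longer called when replicate 2 or 3 of EV Vehicle, or replicate 2 of P53ERTAM Vehicle, was left out, nor Tubb2a when replicate 1 or 2 of either group was. Neither was called with upper-quartile scaling (edgeR adjusted p = 0.0899 and 0.124) or with only the groups compared in the fit (edgeR adjusted p = 0.081 and 0.0744), and Tuba1b was not called by voom.

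Under combo 3 of 9 tubulins were lower in P53ERTAM tumors and none was higher, where 44.1% of all genes tested were called and 22% were called lower. Tubb6 fell by 0.85 ± 0.158 (edgeR adjusted p = 0.000949), Tubb4b by 0.65 ± 0.153 (edgeR adjusted p = 0.00426) and Tuba1c by 0.45 ± 0.17 (edgeR adjusted p = 0.0468). The first 2 calls held with each library left out in turn, and that of Tuba1c was lost without any 1 of 7 libraries. Tubb5 at -0.33 ± 0.132 and Tubb2b at -0.54 ± 0.228 did not overlap between the vectors and missed the threshold (edgeR adjusted p = 0.0582 and 0.0713), where 29.4% of all genes tested were lower and 32.3% higher without overlap. DESeq2 and a fit of protein-coding genes only each called 6 tubulins lower in place of 3. Tuba1b at 0.09 and Tubb2a at 0.06 were the only positive values, and both signs turned with a fit of protein-coding genes only. The median was -0.45 for the tubulins, 0.06 for all genes tested and 0.13 for protein-coding genes tested.

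Proliferation markers moved with the vector in the same direction: 10 of 10 were lower in P53ERTAM tumors under either treatment, with a summed level of 851 to 1210 CPM in P53ERTAM Vehicle against 2080 to 2850 CPM in EV Vehicle tumors, and of 919 to 1010 CPM in P53ERTAM Combo against 1750 to 2120 CPM in EV Combo tumors. Under vehicle 7 of 8 epithelial markers were lower in P53ERTAM tumors, with sums of 1790 to 2260 against 3450 to 4280 CPM in EV tumors. In the same tumors 5 of 7 fibroblast markers were higher, with sums of 1450 to 3730 against 521 to 560 CPM in EV tumors. With combo 2 of the 8 epithelial markers were higher and 1 was lower in P53ERTAM tumors. Their sums were then 2230 to 2740 against 2050 to 2540 CPM in EV tumors. Of the 7 fibroblast markers 1 was higher with combo, with sums of 1320 to 2000 against 988 to 1950 CPM in EV tumors. Of 6 basal and myoepithelial markers 4 were lower in P53ERTAM tumors under either treatment, with sums of 97.9 to 150 against 229 to 439 CPM in EV tumors under vehicle and of 69.4 to 73.4 against 368 to 518 CPM under combo. Of 6 endothelial markers 3 were higher under combo and 4 under vehicle. Under combo 6 of 8 macrophage markers were higher in P53ERTAM tumors, with sums of 1010 to 1450 against 324 to 440 CPM in EV tumors, as were 4 of the 5 T, NK and B cell markers tested, with sums of 20.5 to 26.5 against 1.71 to 6.36 CPM. None of the genes of these lists was at 0 counts in a group in the comparisons named, and the part of these markers in the tubulin values was not tested. Within P53ERTAM tumors edgeR called none of the 10 proliferation markers for combo (1 at an unadjusted p under 0.05, 0 called by DESeq2 and 2 by voom), with a median log2 fold change of -0.05.

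The changes above altered the make-up of each family, described here as shares per exon length with no test. Tuba1a made up 22.2% ± 1.99 of alpha tubulin mRNA in P53ERTAM Combo against 15.5% ± 3.22 in P53ERTAM Vehicle tumors, and 26.7% ± 5.36 in EV Combo against 11.6% ± 2.96 in EV Vehicle tumors (SD, n = 3 each). Tuba1b made up 47.2% ± 3.8 in P53ERTAM Combo against 55.9% ± 2.48 in P53ERTAM Vehicle tumors, and 38.5% ± 3.34 in EV Combo against 52.0% ± 2.74 in EV Vehicle tumors. The ranges of the treatments did not overlap for either gene with either vector. The share of Tuba1a was higher where that of Tuba1b was lower. Shares of a family have a fixed sum, so a higher share of any gene lowers those of the others. In P53ERTAM tumors Tuba1b itself was not called for combo, with a log2 fold change of 0.12. Both genes share most of their 50-base stretches with other genes, the Tuba1 genes first among them.

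Tubb5 was the largest beta share in every tumor. It was 55.4% ± 0.717 in P53ERTAM Combo against 61.1% ± 0.403 in P53ERTAM Vehicle tumors, and 50.2% ± 1.98 in EV Combo against 57.0% ± 2.22 in EV Vehicle tumors. The share was lower under combo without overlap with either vector. The level of Tubb5 was not called for combo with either vector, with log2 fold changes of 0.29 in P53ERTAM and -0.26 in EV tumors. Tubb2a and Tubb2b together were 8.56% ± 0.135 in P53ERTAM Combo against 5.97% ± 0.758 in P53ERTAM Vehicle tumors. They were 7.07% ± 1.46 in EV Combo against 3.82% ± 0.81 in EV Vehicle tumors, again without overlap. Tubb6 differed between vectors more than between treatments, with 11.9% ± 1.16 in P53ERTAM Combo, 11.4% ± 1.20 in P53ERTAM Vehicle, 15.5% ± 1.61 in EV Combo and 15.1% ± 1.05 in EV Vehicle tumors.

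**Figure D3:**
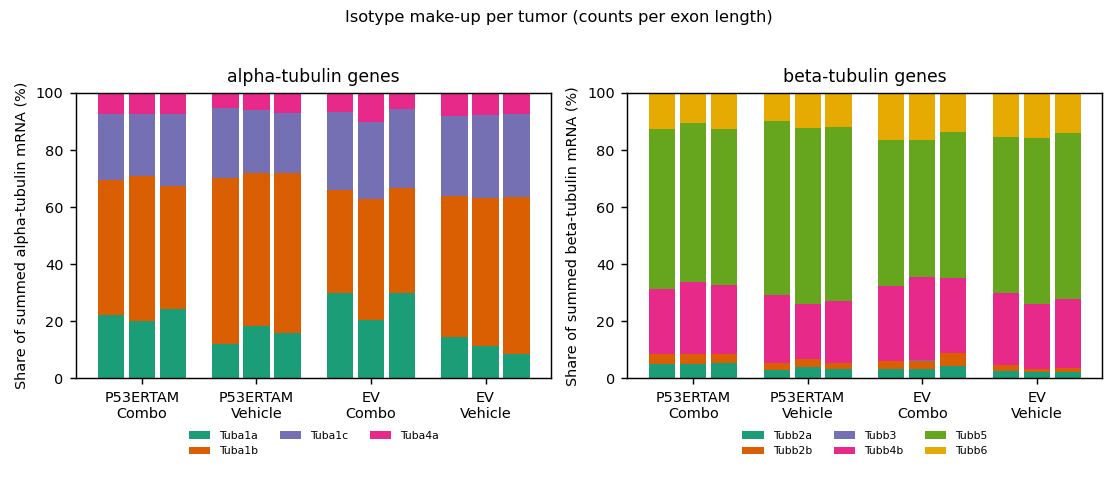
Share of each gene in the summed alpha tubulin (left) and beta tubulin (right) mRNA of each tumor, in percent of counts per exon length; each bar is 1 tumor, 3 a group. The Tuba1a segment is taller and the Tuba1b segment shorter in combo than in vehicle tumors, and Tubb5 is the largest beta segment in every bar.

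Other genes of the tubulin system are given by list, to be read against the shares of all genes tested that were called higher and lower. These were 3.3% and 2.98% for combo in P53ERTAM tumors, 18.8% and 21.1% for combo in EV tumors, 17.9% and 19.8% for P53ERTAM against EV under vehicle, 22.1% and 22% under combo, and 18.8% and 17.2% for the interaction.

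Of 21 subunits of CCT and prefoldin and dimer-assembly cofactors, none passed by edgeR for combo in P53ERTAM tumors (2 at an unadjusted p under 0.05, 1 called by DESeq2 and 2 by voom), with a median log2 fold change of 0.10. In EV tumors 15 fell and 1 rose with combo. Tcp1, a CCT subunit, fell by 0.72 ± 0.103 (edgeR adjusted p = 0.000328) and Pfdn1, a prefoldin subunit, by 0.81 ± 0.148 (edgeR adjusted p = 0.00116), while Tbce, the cofactor that helps release alpha tubulin, rose by 1.10 ± 0.145 (edgeR adjusted p = 0.000221). The interaction was called positive for 14 and negative for 1, Tbce. Under vehicle 12 of 21 were lower in P53ERTAM tumors and none higher, among them the prefoldin subunit Vbp1 by 1.12 ± 0.167 (edgeR adjusted p = 0.000324) and the CCT subunit Cct5 by 0.94 ± 0.146 (edgeR adjusted p = 0.00042). Under combo 6 were higher and 1 lower.

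Of the 4 genes of tubulin mRNA autoregulation, Ttc5, Scaper, Cnot1 and Cnot11, none passed by edgeR, DESeq2 or voom or had an unadjusted p under 0.05 for combo in P53ERTAM tumors. Cnot11, the CCR4-NOT subunit that SCAPER contacts, fell by 0.47 ± 0.148 (edgeR adjusted p = 0.0216) with combo in EV tumors. It also fell by 0.70 ± 0.149 (edgeR adjusted p = 0.00281) in P53ERTAM against EV tumors under vehicle, as did Cnot1, the scaffold of that complex, by 0.52 ± 0.122 (edgeR adjusted p = 0.005). Under combo Scaper alone was called, lower in P53ERTAM tumors by 0.56 ± 0.144 (edgeR adjusted p = 0.00755).

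Among 14 gamma, delta and epsilon tubulins and subunits of the gamma-tubulin ring, which nucleates microtubules, none passed by edgeR for combo in P53ERTAM tumors (5 at an unadjusted p under 0.05, 2 called by DESeq2 and 3 by voom). In EV tumors 5 rose and 3 fell. In P53ERTAM against EV tumors 5 were lower and none higher under vehicle, and 9 were lower and 2 higher under combo. Tubg1, the main gamma tubulin, fell by 1.33 ± 0.159 (edgeR adjusted p = 9.23e-05) under vehicle, a size close to that of Tubb6. Of the other 6 alpha and beta tubulin genes, Tuba8 and Tubb4a passed the filter with at most 16 and 23 counts in a library, and neither was called by edgeR, DESeq2 or voom or had an unadjusted p under 0.05 in any comparison.

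Of 17 enzymes tested that modify tubulin, 5 rose and 2 fell with combo in EV tumors, a share near the 39.9% of all genes called there. Ttll3, a tubulin glycylase, rose by 2.30 ± 0.221 (edgeR adjusted p = 4.42e-05) and Atat1, the alpha tubulin acetyltransferase, by 1.81 ± 0.235 (edgeR adjusted p = 0.0002). In P53ERTAM tumors none rose and 3 fell, Ttll3 among them by 0.91 ± 0.215 (edgeR adjusted p = 0.0291), and its interaction was -3.21 ± 0.307 (edgeR adjusted p = 0.000155). Of 8 destabilising and severing proteins tested, none rose in any of the 4 comparisons. For P53ERTAM against EV under vehicle 5 of them fell, with Stmn1, which sequesters tubulin dimers, lower by 0.97 ± 0.224 (edgeR adjusted p = 0.00473) and Kif2c, a microtubule-depolymerising kinesin, by 0.84 ± 0.141 (edgeR adjusted p = 0.000679).

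Of 22 microtubule-binding proteins tested, Mapre2, a plus-end protein, was the 1 called for combo in P53ERTAM tumors, higher by 0.67 ± 0.163 (edgeR adjusted p = 0.0326). In EV tumors 8 rose and 1 fell, the fall being that of Mapre1, the plus-end protein EB1, by 0.48 ± 0.0965 (edgeR adjusted p = 0.002). P53ERTAM against EV tumors had 7 higher and 5 lower under vehicle and 7 higher and 8 lower under combo. Of 3 genes of docetaxel export that were tested, Abcc10 rose by 1.21 ± 0.234 (edgeR adjusted p = 0.00162) with combo in EV tumors and none was called by edgeR in P53ERTAM tumors (1 at an unadjusted p under 0.05, 1 by DESeq2 and 1 by voom).

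**Figure D4:**
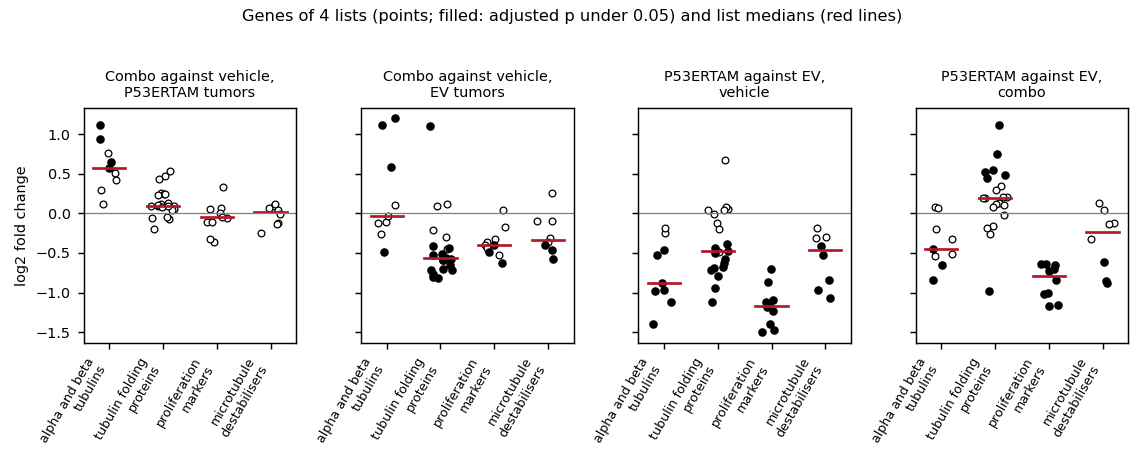
Log2 fold change (y axis) of each gene tested (points, filled where the edgeR adjusted p was under 0.05) in 4 gene lists, with list medians as red lines, in the same 4 comparisons. For combo in P53ERTAM tumors the tubulin median is 0.58 and that of the folding proteins 0.10, and for combo in EV tumors they are -0.04 and -0.57.

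The mean profile of the 9 tubulins over the 12 libraries, in centred log2 CPM, was 0.03 in P53ERTAM Combo, -0.59 in P53ERTAM Vehicle, 0.39 in EV Combo and 0.17 in EV Vehicle tumors. Of 9611 protein-coding genes with a mean of at least 10 CPM, those whose profile lay closest were Taok3, Nif3l1, Zfp809, Maml2, Polr2b and Xrn2, with root-mean-square differences of 0.104, 0.113, 0.118, 0.12, 0.122 and 0.132 over the 12 libraries. These genes were picked for that likeness. Among the single tubulins the difference from their own mean was 0.196 for Tuba1c, the closest, and 0.431 for Tuba1a, the farthest. Tubb2b at 0.424 and Tuba1b at 0.366 followed Tuba1a.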

How the data were processed

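RNA of 12 bulk tumors, 3 in each of 4 groups taken from the sample titles, was sequenced from stranded libraries depleted of ribosomal RNA (labels' protocols). Per the submitters' processing notes, which give no version, the tools were STAR, featureCounts, FastQC and fastp and the genome was GRCm38.p5. Each deposited file gives raw counts for every gene with its exon length, in the featureCounts layout per the file headers. The strand setting, the handling of reads that fit several genes and the annotation release are not given in the sources used here. Of 52636 identifiers 52489 matched a symbol in GENCODE M21. Even numbers made up 66.3% to 71.7% of the counts from 1 to 20 and 49.2% to 52.1% of those over 200.

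From these counts, genes were kept by filterByExpr and scaled by TMM (factors 0.941 to 1.055) in edgeR 4.0.16 under R 4.3.3. The quasi-likelihood F-test (robust) used a single model of the 4 groups (8 residual degrees of freedom) and 5 contrasts, with Benjamini-Hochberg adjustment over 17970 genes and a threshold of 0.05. The biological coefficient of variation was 0.221, and the fit was tested on simulated data. CPM are TMM-scaled, TPM use the deposited exon lengths, and the likeness of profiles used log2 CPM with a prior count of 2. The members, gene lists and rules were chosen with earlier results of these data known. The text names all 10 tubulins and, per related list and comparison, up to 4 of the called genes with the smallest p. Alternatives were DESeq2 1.42.0, RLE and upper-quartile scaling, no filter, protein-coding genes only, halved counts, smaller fits, a replicate block, limma 3.58.1 voom weights, a test against a fold of 1.5, each library left out and, added after the data were seen, offsets for GC content and length. Nothing in the labels says that the tumors of a group are separate cultures or passages, so p-values measure the spread between these tumors. No 2 libraries of a group agreed within sampling noise. Intervals for 0 counts cover counting error only, and PCR copies were not removed by molecular identifiers.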

Additional observations from a re-analysis of the deposited data

Results flagged for a closer look

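Tuba4a responded to combo differently in the 2 vectors by the test of the difference itself: the effect in P53ERTAM tumors was 0.781 higher on the log2 scale than that in EV tumors (edgeR adjusted p = 0.0248; log2 fold change 0.65 in P53ERTAM and -0.13 in EV tumors). Its P53ERTAM Vehicle tumors, at 19.8 to 33.5 CPM, were the lowest of the 4 groups. Stk16 overlaps 37.3% of its exon bases on the opposite strand. The difference was called for 2 of 9 tubulins, where 36% of all genes tested were called. That of Tuba4a was not called with upper-quartile scaling (edgeR adjusted p = 0.0701) or with protein-coding genes only (edgeR adjusted p = 0.066).

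Tubb5 was picked out by the same test, with an effect 0.551 higher in P53ERTAM than in EV tumors (edgeR adjusted p = 0.0348; log2 fold change 0.29 in P53ERTAM and -0.26 in EV tumors, neither past the threshold alone). With 1 of the 12 libraries left out in turn, the difference was called in 3 of 12 fits for Tubb5 (log2 0.41 to 0.67, adjusted p = 0.0144 to 0.0993 in edgeR) and in 7 of 12 for Tuba4a (log2 0.61 to 0.97, adjusted p = 0.00652 to 0.0669 in edgeR). That of Tubb5 was not called with upper-quartile scaling (edgeR adjusted p = 0.127) or with protein-coding genes only (edgeR adjusted p = 0.115).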

How the results depend on the processing

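No log2 fold change of a called tubulin changed its sign under any alternative run. For combo in P53ERTAM tumors, 4 tubulins were called; 6 were called by DESeq2, with voom weights and without the filter (Tubb2b and Tubb6 gained), 2 were called with EV Combo left out of the fit, 2 with GC and length offsets and 0 against a fold of 1.5, and 1 to 5 with 1 library left out. For combo in EV tumors, 4 were called, 2 against a fold of 1.5, and 3 to 5 with 1 library left out. For P53ERTAM against EV under vehicle, 7 were called, 5 with upper-quartile factors, 5 with only the groups compared, 5 against a fold of 1.5 and 6 with voom weights, and 5 to 7 with 1 library left out. Under combo 3 were called, 6 by DESeq2, 6 with protein-coding genes only, 6 with GC and length offsets, 5 with only the groups compared, 5 with voom weights, 0 against a fold of 1.5, and 2 to 5 with 1 library left out. For the interaction 2 were called, 4 without the filter, 4 with voom weights, 1 with RLE factors, 1 with GC and length offsets, 0 with upper-quartile factors, 0 with protein-coding genes only, 0 against a fold of 1.5, and 0 to 4 with 1 library left out. The cause was not tested where samples and genes were the same.

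The summed tubulin level for combo against vehicle in EV tumors had a log2 ratio of 0.11 in TPM, -0.11 in CPM and 0.37 in TPM over protein-coding genes. For P53ERTAM against EV under combo it was -0.47 in TPM and -0.67 in TPM over protein-coding genes.

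Correlations between tumors gave no clear sign that replicate numbers pair them. The 18 pairs with the same number had correlations of -0.149 to 0.211 (median -0.0262, 2 over 0.1). The 36 other pairs had -0.262 to 0.152 (median 0.0158, 4 over 0.1). With 3 tumors a group, such correlations cannot exclude a pairing. With a replicate block the tubulins called were 3 for combo in P53ERTAM tumors (Tuba4a was lost, adjusted p = 0.0658 in edgeR), 4 for combo in EV tumors, 7 and 3 for P53ERTAM against EV under vehicle and combo, and 2 for the interaction.

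Over all genes, the 1129 calls for combo in P53ERTAM tumors became 2301 by DESeq2, 1890 with only the groups compared, 627 without EV Combo, 3748 with voom weights, 19 against a fold of 1.5 and 77 to 2130 with 1 library left out. Against a fold of 1.5 the calls were 1870 rather than 7169 for combo in EV tumors, 2078 rather than 6784 and 2897 rather than 7918 for P53ERTAM against EV under vehicle and combo, and 2593 rather than 6473 for the interaction. Upper-quartile factors moved the median log2 fold change of all genes by 0.15 for combo in EV tumors (4159 higher and 2507 lower calls, against 3386 and 3783), by 0.17 for P53ERTAM against EV under vehicle (4450 and 2383, against 3217 and 3567) and by -0.20 for the interaction (1998 and 3791, against 3377 and 3096). For combo in P53ERTAM tumors they gave 510 and 729, against 593 and 536. GC and length offsets moved the first 2 medians by -0.12 and -0.12 (2741 and 4913, and 2604 and 4554). Depth limits Tubb3, which had at most 14 counts in a library.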

Other observations

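The 3 beta tubulin pseudogenes that were looked up held few counts beside their parent genes; other genes that share sequence with the alpha tubulins were not counted here. Tubb4b-ps2 had at most 15, Tubb4b-ps1 at most 13 and Tubb2a-ps2 at most 12 counts in any library, where Tubb4b had 1203 to 6283. Abcb1a, a drug efflux pump that exports taxanes, was higher in P53ERTAM than in EV tumors by 1.66 ± 0.552 under combo (edgeR adjusted p = 0.0267) and by 1.64 ± 0.578 under vehicle (edgeR adjusted p = 0.0386), while Abcc10, another taxane exporter, was lower by 1.35 ± 0.234 under combo (edgeR adjusted p = 0.000573) and higher by 0.69 ± 0.234 under vehicle (edgeR adjusted p = 0.0327). The level of Abcb1a was low, at 0.289 to 1.82 CPM in EV Combo and 0.345 to 1.23 CPM in EV Vehicle tumors. Abcb1b, on the same list, had group means from 2.45 CPM in EV Vehicle to 5.77 CPM in P53ERTAM Combo. It was not called by edgeR in either comparison.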
